A study of Homo sapiens with 4 samples.

Results

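The tumor necrosis factor (TNF) receptor and ligand superfamilies were examined in HER2-positive breast cancer cells that had become resistant to lapatinib. The 44 members are a list of gene names whose rule uses no measured value, and 43 of them had a probe on the array, among 16422 genes with a named probe. These were 27 receptors and 16 ligands, and only TNFRSF6B, a soluble decoy receptor, had no probe that could be named. SkBr3 and BT474, established human breast cancer cell lines with amplified HER2, were each measured as parental cells given vehicle and as a lapatinib-resistant clone. Lapatinib is a kinase inhibitor of EGFR and HER2, and the clones (SkBr3/Lap and BT474/Lap) were obtained under rising concentrations that reached 1 µM. For its immunoblots the study kept these clones in 1 µM lapatinib. Its text does not say whether the drug was present in the cells taken for the arrays. A response to the drug and acquired resistance can therefore not be told apart in these pairs. All cells grew in DMEM/F12 medium. Each condition was measured on 1 one-color Agilent array of total RNA, so each resistant line stands for 1 clone and 1 RNA sample and no replicate spread exists. By its label the SkBr3 clone is number 3 and the BT474 clone number 6, whereas the study's text pairs these numbers with the lines the other way around, and the clones are therefore named by line here.

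Ligands of the TNF superfamily are mostly trimeric membrane proteins, several of which are shed as soluble cytokines, and they cluster their receptors at the cell surface. Receptors with a cytoplasmic death domain recruit adaptors such as TRADD and FADD, which lead to the kinase RIPK1, to caspase-8 and, depending on the complex, to NF-κB or cell death. Other receptors bind TRAF adaptors directly and signal mainly through the classical and alternative NF-κB pathways, and decoy receptors bind a ligand without passing on a death signal. Several ligands and receptors are themselves known targets of NF-κB, the pathway that the study followed in these clones.

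Promoter sequences are shown for 4 ligands: TNF and LTB, neighbors that were both higher in SkBr3/Lap, TNFSF10, which differed in opposite directions in the clones, and TNFSF4, which was higher in both. They are the 250 bases before the RefSeq transcription start on GRCh38.p14, written 5′ to 3′ on the strand of the gene, with capitals marking each match to the NF-κB core GGGNNNNNCC on either strand. The windows are chr6:31575315-31575564 on the plus strand for TNF, chr6:31582426-31582675 on the minus strand for LTB, chr3:172523431-172523680 on the minus strand for TNFSF10 and chr1:173205533-173205782 on the minus strand for TNFSF4.
TNF: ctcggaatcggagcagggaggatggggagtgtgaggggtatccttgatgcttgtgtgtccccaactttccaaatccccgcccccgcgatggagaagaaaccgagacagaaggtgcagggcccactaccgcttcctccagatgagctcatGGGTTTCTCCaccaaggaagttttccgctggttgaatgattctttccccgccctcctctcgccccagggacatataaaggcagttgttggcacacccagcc
LTB: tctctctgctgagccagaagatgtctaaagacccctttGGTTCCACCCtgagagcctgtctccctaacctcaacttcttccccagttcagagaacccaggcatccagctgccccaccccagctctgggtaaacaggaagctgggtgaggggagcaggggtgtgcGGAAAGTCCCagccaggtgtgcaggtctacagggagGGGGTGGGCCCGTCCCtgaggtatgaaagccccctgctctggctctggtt
TNFSF10: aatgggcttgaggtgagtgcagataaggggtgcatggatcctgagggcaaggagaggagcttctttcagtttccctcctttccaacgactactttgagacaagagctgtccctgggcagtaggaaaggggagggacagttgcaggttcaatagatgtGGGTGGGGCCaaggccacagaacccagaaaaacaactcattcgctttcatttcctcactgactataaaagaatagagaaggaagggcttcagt
TNFSF4: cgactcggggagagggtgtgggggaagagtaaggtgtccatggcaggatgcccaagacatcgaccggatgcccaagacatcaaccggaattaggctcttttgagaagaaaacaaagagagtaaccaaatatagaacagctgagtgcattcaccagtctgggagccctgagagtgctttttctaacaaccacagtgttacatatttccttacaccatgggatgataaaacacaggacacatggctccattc

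The TNF window held 1 match, which began 101 bases before the start, and the TNFSF10 window held 1 at 93 bases. The LTB window held 7 overlapping or separate matches at 6 positions between 44 and 212 bases before the start, and the TNFSF4 window held 0. Of the 28 members with a promoter in the RefSeq table used, 21 (75%) held the core in this window. The core is short, and 65.0% of the 13086 promoters of genes with a probe held it too. Among the members at least 2-fold higher in SkBr3/Lap, 5 of the 6 with a promoter held it, and among those lower there, 3 of 3 did. In BT474/Lap it was held by 1 of 2 higher and by 0 of 2 lower members with a promoter. A match is a description of these letters and does not mark a bound site.

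Signals are given as processed array intensities, and a probe's signal is compared between arrays and never with that of another probe. Fold changes were taken after division by each array's 75th percentile, which was 1115 for SkBr3 and 2074 for its clone, and 1158 for BT474 and 1681 for its clone, so a fold up in a clone is smaller, and a fold down larger, than the ratio of the signals printed. A probe that Feature Extraction did not mark as well above background on an array has only a bound there, and the fold is then given as a limit. It sets the dim side to the higher of the probe's own signal and the lowest signal marked well above background on that array, which lay between 13.3 and 16.01. The array of SkBr3/Lap lay alone on a second slide, so in SkBr3 the difference between clone and parent and the difference between slides cannot be told apart, whereas both BT474 arrays lay on the first slide. The arrays of both clones had more probes well above background (73.7% and 74.0%) than those of the parents (66.6% and 68.3%), and the part of this in the results was not tested. Luminal and HER2 markers (ERBB2, GRB7, EPCAM, KRT8, KRT18 and KRT19) were well above background on all 4 arrays, with ERBB2 3.74-fold and GRB7 2.29-fold lower in SkBr3/Lap.

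A smaller share of superfamily members than of all genes was detected on each array, and more members were detected in the clones than in the parents. Transcripts well above background were found for 23 of 43 members (53.5%) in SkBr3 against 30 (69.8%) in its clone, and 21 (48.8%) in BT474 against 28 (65.1%) in its clone. Over all 16422 genes the shares were 74.7%, 81.1%, 76.6% and 81.2%. These calls rest on the probe with the highest mean signal of each gene. On all 4 arrays 15 members were detected by it, namely CD27, LTBR, RELT, TNFRSF1A, TNFRSF10A, TNFRSF10B, TNFRSF11B, TNFRSF12A, TNFRSF13C, TNFRSF18, TNFRSF21, TNFRSF25, TNFSF9, TNFSF10 and TNFSF13. By any probe of a gene TNF was a further one, which brought the members detected in BT474 and BT474/Lap to 22 and 29. Detected on none of the arrays by any probe were TNFRSF9 (the 4-1BB receptor), TNFRSF13B (TACI, a B cell receptor) and the ligands TNFSF8, TNFSF11, TNFSF14 and TNFSF18, and the other 22 members, TNF included, were detected on some arrays by the probe with the highest mean signal. With less RNA per cell or fewer expressing cells, a bulk signal would be lower alike, and these cannot be told apart.

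In SkBr3/Lap, 8 of 32 members that could be compared were at least 2-fold higher than in SkBr3 (25%) and 4 were at least 2-fold lower (12.5%). The background over 13554 genes was 12.7% higher and 13.5% lower. In BT474/Lap, 4 of 30 were higher (13.3%) and 5 were lower (16.7%), against a background of 8.56% and 5.89% of 13486 genes. The median log2 fold change of members measured on both arrays was 0.16 over 21 members in SkBr3/Lap and -0.31 over 19 in BT474/Lap, beside -0.10 over all genes in each. These counts have no test, because there is 1 array per condition, and they moved with the processing, the number lower in BT474/Lap from 3 to 9. The median in SkBr3/Lap was reversed to -0.0636 with a pseudocount, and that in BT474/Lap ranged from -0.0286 to -0.76.

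**Figure D1:**
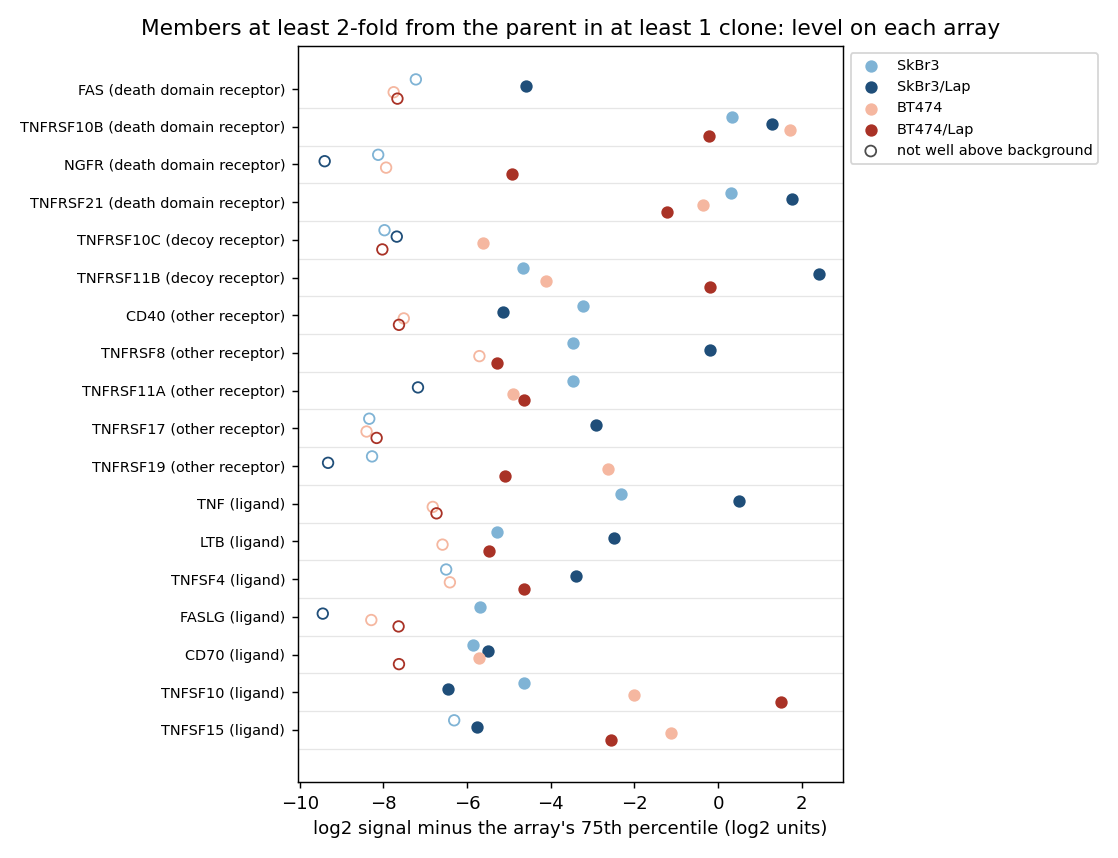
Log2 signal minus the array's 75th percentile (horizontal axis, log2 units) for the 18 members at least 2-fold higher or lower than the parent in at least 1 clone, with 1 point per array and open circles where a probe was not well above background. TNFRSF11B lies far to the right of its parent in both clones, while TNFSF10 lies to the right in BT474/Lap and to the left in SkBr3/Lap.

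Among the 8 receptors with a death domain, 5 were detected on all 4 arrays. TNFRSF21 (death receptor 6), an orphan member in this group known mainly from neurons and T cells, had signals of 1388 in SkBr3 and 7116 in SkBr3/Lap and of 898 in BT474 and 717 in BT474/Lap. It was 2.76-fold higher in SkBr3/Lap than in its parent and 1.82-fold lower in BT474/Lap. Its other probe gave 2.94-fold higher and 2.32-fold lower, so in BT474/Lap the probes lie on either side of 2-fold.

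TNFRSF10B (DR5), a death receptor for TRAIL, had signals of 1400 in SkBr3 against 5051 in its clone, and 3826 in BT474 against 1457 in its clone. Only the BT474 pair passed 2-fold, with a level 3.81-fold lower in the clone, and in SkBr3/Lap it was 1.94-fold higher. The other probe gave 3.26-fold lower in BT474/Lap and 3.56-fold higher in SkBr3/Lap, so by that probe the clones passed 2-fold in opposite directions. TNFRSF10A (DR4), the other death receptor for TRAIL, was 1.21-fold lower in SkBr3/Lap and 1.69-fold lower in BT474/Lap.

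FAS, the receptor of FAS ligand, had signals of 7.45 in SkBr3 against 85.9 in its clone, and 5.36 in BT474 against 8.28 in its clone. Its probe is spotted 10 times on each array, and 10 of 10 spots were well above background in SkBr3/Lap against 0 of 10 on each of the other arrays. The level in SkBr3/Lap was therefore at least 2.88-fold higher, although below 2-fold with a pseudocount or with normexp background correction. NGFR, the low-affinity neurotrophin receptor, was detected in BT474/Lap alone, with signals of 3.99 in SkBr3 against 3.06 in its clone, and 4.73 in BT474 against 55.3 in its clone. That is at least 2.39-fold higher than in BT474, and below 2-fold under the same alternatives. Of the remaining death domain receptors, TNFRSF1A, the main TNF receptor of epithelial cells, differed from the parent by log2 values of 0.16 in SkBr3/Lap and by -0.09 in BT474/Lap, TNFRSF25 (DR3) by 0.47 and 0.79, and EDAR was detected only in BT474/Lap, at least 0.79 higher on the log2 scale.

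The largest difference in both clones among the members belonged to a decoy receptor, TNFRSF11B (osteoprotegerin), a secreted protein that binds RANK ligand and TRAIL. Its signal was 44.1 in SkBr3 and 10960 in SkBr3/Lap, and 66.4 in BT474 and 1472 in BT474/Lap. All 4 values were well above background, and the clones were 134-fold and 15.3-fold higher than their parents. With normexp background correction the log2 fold changes were smaller, at 5.71 and 3.14. The other probe, with 10 spots per array, gave signals of 31.5 and 6910 in SkBr3 and its clone and of 38.3 and 817 in BT474 and its clone. Its log2 fold changes were 6.88 ± 0.09 (SE between spots, which covers error within the arrays only) and 3.88 ± 0.06, close to 7.06 and 3.93 by the first probe.

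TNFRSF10C (DcR1), a membrane decoy for TRAIL, was detected only in BT474, with a signal of 23.6 against 6.45 in BT474/Lap, and it was not so marked in SkBr3, at 4.43, or in its clone. The clone was at least 2.34-fold lower than BT474, from a signal close to the detection limit, and short of 2-fold under 3 of the alternatives. TNFRSF10D (DcR2), the other membrane decoy for TRAIL, was detected only in SkBr3/Lap at a signal of 25.5, too dim to set a fold.

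Of the 16 other receptors, 13 could be compared in SkBr3/Lap and 11 in BT474/Lap. In SkBr3/Lap 2 were at least 2-fold higher and 2 lower (15.4% each), beside 12.7% and 13.5% of all genes. In BT474/Lap 0 were higher and 1 lower (9.09%), beside 8.56% and 5.89% of all genes. TNFRSF8 (CD30), a receptor known from activated lymphocytes and Hodgkin lymphoma, had signals of 100 in SkBr3 against 1822 in its clone, and 22.2 in BT474 against 42.9 in its clone. It was 9.79-fold higher in SkBr3/Lap and at least 1.33-fold higher in BT474/Lap. TNFRSF17 (BCMA), a receptor of plasma cells for APRIL and BAFF, was detected in SkBr3/Lap alone, at 274 against 3.44 in SkBr3, 3.42 in BT474 and 5.86 in BT474/Lap. The level in SkBr3/Lap was at least 9.20-fold higher, a log2 value of 3.20, which was 2.115 with normexp background correction. Both genes are best known from lymphoid cells, and PTPRC (CD45), the pan-leukocyte marker, was detected on none of the arrays. Of the 6 leukocyte markers, 4, 5, 4 and 5 were detected in SkBr3, SkBr3/Lap, BT474 and BT474/Lap, with summed levels of 1.52, 0.918, 1.12 and 1.25 times the array's 75th percentile.

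CD40, a receptor of antigen-presenting and epithelial cells, had signals of 119 in SkBr3 and 59.1 in SkBr3/Lap and was too dim for the mark in BT474 and its clone, at 6.34 and 8.49. It was 3.76-fold lower in SkBr3/Lap, with an SE of 0.20 log2 units between its 10 spots, 1 of which was marked as an outlier in SkBr3 with a signal of 406. With normexp background correction the log2 fold change was -0.95, just short of 2-fold. TNFRSF11A (RANK), the receptor of RANK ligand, had signals of 100 in SkBr3 against 14.4 in its clone, and 38.8 in BT474 against 66.9 in its clone. It was at least 13.0-fold lower in SkBr3/Lap, where it was not well above background, and 1.19-fold higher in BT474/Lap. The log2 value in SkBr3/Lap was -3.70, and -1.34 with normexp background correction. In SkBr3/Lap, RANK was thus low on the array where osteoprotegerin, the decoy for the same ligand, was high, and the ligand itself (TNFSF11) was not detected on any array.

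TNFRSF19 (TROY), a receptor of embryonic epithelium and brain, was detected in BT474 at 188 and in BT474/Lap at 48.9, and not in SkBr3 or SkBr3/Lap at 3.61 and 3.23. It was 5.56-fold lower in BT474/Lap. The probe for another transcript of the gene was not well above background on any array. The other members of this class did not pass 2-fold in either clone. TNFRSF12A (Fn14), the receptor of TWEAK, was 1.65-fold higher in SkBr3/Lap than in its parent and 1.15-fold lower in BT474/Lap. LTBR, the lymphotoxin β receptor, was 1.32-fold higher and 1.88-fold lower, RELT 1.41-fold and 1.94-fold lower, and TNFRSF18 (GITR) 1.72-fold and 1.74-fold lower. CD27, a costimulatory receptor of T cells, was 1.03-fold and 1.05-fold higher, and TNFRSF13C (the BAFF receptor) had log2 fold changes of -0.66 and -0.14. TNFRSF14 (HVEM) was 1.27-fold lower in SkBr3/Lap and at least 1.24-fold higher in BT474/Lap. TNFRSF1B, the TNF receptor of immune cells, was detected in SkBr3/Lap alone at a signal of 42.0, and TNFRSF4 (OX40) in SkBr3/Lap and BT474/Lap at 28.7 and 29.1 and in neither parent.

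**Figure D2:**
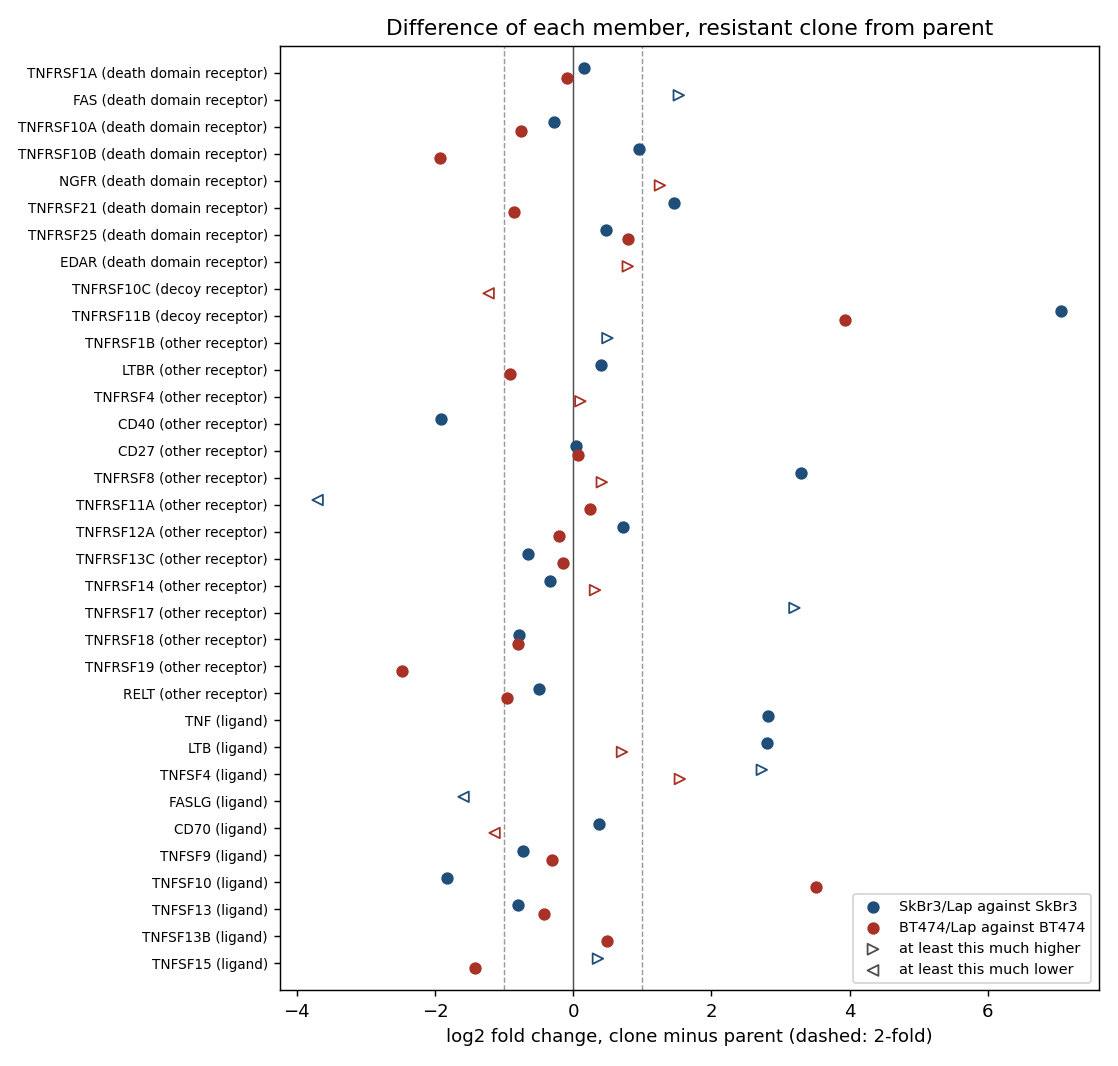
Log2 fold change of each comparable member in SkBr3/Lap and BT474/Lap against its own parent (horizontal axis), with triangles for limits where 1 array of the pair was not well above background and dashed lines at 2-fold. TNFRSF11B stands farthest out, at 7.06 and 3.93, and most detected receptors lie between the dashed lines.

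Of the 16 ligands, 11 could be compared in SkBr3/Lap and 10 in BT474/Lap. In SkBr3/Lap 3 were at least 2-fold higher (27.3%) and 2 lower (18.2%), beside 12.7% and 13.5% of all genes. In BT474/Lap 2 were higher and 2 lower (20% each), beside 8.56% and 5.89% of all genes. TNF, the founding cytokine of the family, had signals of 224 in SkBr3 and 2933 in SkBr3/Lap and was by this probe not well above background in BT474 and BT474/Lap, at 10.2 and 15.8. It was 7.04-fold higher in SkBr3/Lap. The other TNF probe, with 10 spots per array and detected on all 4, gave 38.5 and 221 in SkBr3 and its clone and 23.0 and 26.8 in BT474 and its clone. By this dimmer probe TNF was 3.09-fold higher in SkBr3/Lap than in its parent and 1.25-fold lower in BT474/Lap.

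LTB (lymphotoxin β), which forms a membrane heterotrimer with lymphotoxin α, had signals of 28.5 in SkBr3 against 371 in its clone, and 12.0 in BT474 against 37.8 in its clone. It was 6.998-fold higher in SkBr3/Lap and at least 1.63-fold higher in BT474/Lap, where the parent was not well above background. LTA, TNF and LTB lie next to each other on chromosome 6 with 0 genes between them, and TNF and LTB were both higher in SkBr3/Lap, with log2 fold changes of 2.82 and 2.81. The other TNF probe gave 1.63, and with normexp background correction TNF was at 2.49 and LTB at 1.77. LTA was detected in both clones and in neither parent, with signals of 15.7, 27.0, 13.0 and 19.2 in SkBr3, SkBr3/Lap, BT474 and BT474/Lap, too dim to set a fold.

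TNFSF4 (OX40 ligand), a costimulator of T cells, was detected in both clones and in neither parent. Its signals were 12.3 in SkBr3 against 197 in its clone, and 13.6 in BT474 against 67.5 in its clone. The clones were at least 6.63-fold and at least 2.91-fold higher, the latter short of 2-fold with a pseudocount or normexp background correction. FASLG, which lies near TNFSF4 on chromosome 1 and triggers FAS, went the other way in SkBr3/Lap. FASLG had a signal of 21.5 in SkBr3, close to the detection limit, and 2.96 in SkBr3/Lap, which is at least 3.00-fold lower, and its other probe was not well above background on any array. With normexp it did not reach 2-fold. In SkBr3/Lap the FAS receptor was thus detected and its ligand was not. In SkBr3 only the ligand was detected, and by the brighter probe alone. The other FASLG probe had 0 of 10 spots well above background there.

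TNFSF10 (TRAIL), the ligand of DR4 and DR5 that induces apoptosis in many tumor cells, passed 2-fold in opposite directions in the clones, as no other member did by the probe with the highest mean signal. By their other probes TNFRSF10B and TNFRSF21 did so too. Its signals were 44.8 in SkBr3 against 23.4 in its clone, and 289 in BT474 against 4791 in its clone, each from a probe with 10 spots and each well above background. It was 3.55-fold lower in SkBr3/Lap (log2 fold change -1.83 ± 0.10, SE between spots) and 11.4-fold higher in BT474/Lap (3.52 ± 0.04). With normexp background correction and quantile normalization the value in SkBr3/Lap was -0.61, short of 2-fold, so the call of opposite directions was not kept under that setting. The ligand and its death receptor DR5 thus each differed from the parent in opposite directions in the clones. In SkBr3/Lap TRAIL was lower and DR5 1.94-fold higher, and in BT474/Lap TRAIL was higher and DR5 3.81-fold lower. Osteoprotegerin, which also binds TRAIL, was higher in both clones, as given above.

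TNFSF15 (TL1A), the ligand of DR3, had signals of 14.1 in SkBr3 against 38.2 in its clone, and 528 in BT474 against 285 in its clone. It was 2.69-fold lower in BT474/Lap by this probe and 3.52-fold lower by the other. In SkBr3/Lap it was at least 1.28-fold higher. CD70, the ligand of CD27, was dim on all arrays, at 19.2 in SkBr3 against 46.2 in its clone, and 22.2 in BT474 against 8.49 in its clone. In BT474/Lap its level was at least 2.20-fold lower, though short of 2-fold under 3 of the alternatives, and in SkBr3/Lap it was 1.30-fold higher. TNFSF13 (APRIL) and TNFSF9 (4-1BB ligand) were detected on all arrays and stayed within 2-fold, at log2 fold changes of -0.80 and -0.73 in SkBr3/Lap and -0.42 and -0.31 in BT474/Lap. TNFSF13B (BAFF) was 1.40-fold higher in BT474/Lap, and TNFSF12 (TWEAK) was detected only in BT474/Lap.

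In 25 members that could be compared in both clones, 2 were at least 2-fold higher in both (TNFRSF11B and TNFSF4), 0 were lower in both and 1 went in opposite directions (TNFSF10). Over 12716 genes the shares were 2.41%, 1.3% and 2.57%.

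Agreement between probes was read for the genes with 2 probes that were measured on both arrays of a pair. The probes of TNFRSF11B, TNFRSF21, TNFRSF10B and TNFSF15 gave the same direction in each clone where both were measured. Their sizes differed most for TNF in SkBr3/Lap, with log2 fold changes of 2.82 and 1.63, and for TNFRSF10B there, with 0.96 and 1.83.

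**Figure D3:**
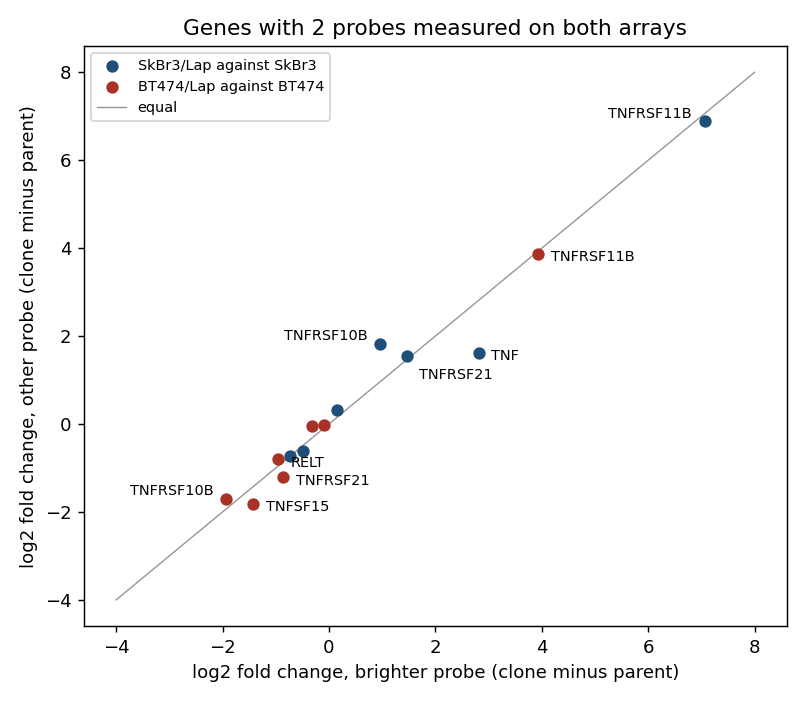
Log2 fold change by the brighter probe (horizontal axis) against the other probe (vertical axis) for members with 2 probes measured on both arrays of a pair, in SkBr3/Lap and BT474/Lap, with the line of equal values. The points follow the line from -1.93 to 7.06, and TNF and TNFRSF10B in SkBr3/Lap lie farthest from it.

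The only test the design allows takes the lines as replicates of the difference between clone and parent. It is a limma fit to all 4 arrays with cell line as a block and 1 residual degree of freedom. With Benjamini-Hochberg adjustment over 14324 genes, 0 genes passed an adjusted p of 0.05 in limma (background 0%), the lowest adjusted p being 0.998, and 572 (3.99%) had an unadjusted p under 0.05. Of 37 members tested, 0 passed after adjustment and 4 had an unadjusted p under 0.05. TNFRSF11B had a mean log2 fold change of 5.50 ± 0.955 (SE, limma adjusted p = 0.998) and was higher in both clones, as was TNFSF4 with 2.44 ± 0.541 (limma adjusted p = 0.998). LTB had 1.96 ± 0.614 (limma adjusted p = 0.998), and TNFRSF19 had -1.76 ± 0.558 (limma adjusted p = 0.998), although its signals in both SkBr3 arrays were not well above background. The fit took such signals as they stood, also for TNFSF4 in both parents and LTB in BT474, so these sizes are not limits. Under the alternatives 1 or 2 members, not 4, had an unadjusted p under 0.05 in limma. The difference between the clones themselves was not tested, since no array is left to measure its error.

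The parental lines already differed in some of these genes. The share of all genes that differed between the parental lines, or between the clones, was not counted. The counts below therefore do not set the members apart from other genes. Of 27 members that could be compared between the parental lines, 5 were at least 2-fold higher in BT474 and 8 in SkBr3. TNFSF15 and TNFRSF19 were at least 31.7-fold and at least 11.3-fold higher in BT474, and TRAIL was 6.21-fold, TNFRSF18 4.66-fold and TNFRSF10B 2.63-fold higher there. The other probes gave at least 11.8-fold for TNFSF15 and 1.56-fold for TNFRSF10B. TNF was at least 14.6-fold higher in SkBr3 by its brighter probe and 1.74-fold by the other, which was detected on all 4 arrays. CD40 was at least 7.77-fold, TNFRSF14 at least 6.01-fold and TNFRSF8 at least 4.68-fold higher in SkBr3, and TNFRSF11A, TNFSF9, TNFRSF10A and TNFSF13 were between 2.09-fold and 2.68-fold higher. Between the clones, 8 of 35 were higher in BT474/Lap and 16 in SkBr3/Lap, on different slides. TRAIL was 252-fold higher in BT474/Lap than in SkBr3/Lap, and TNF was higher in SkBr3/Lap than in BT474/Lap, at least 150-fold by its brighter probe and 6.69-fold by the other.

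Transcripts of a ligand and of its receptor were found in the same bulk RNA sample for more pairs in the clones than in the parents. Of 28 known pairs, both transcripts were well above background for 6 in SkBr3 against 16 in its clone, and 7 in BT474 against 10 in its clone. TRAIL with DR4, DR5 and osteoprotegerin made up the 3 pairs present on all 4 arrays, and 10 pairs were present on none. The pairs of lymphotoxin α with TNFRSF1A, of lymphotoxin α with TNFRSF14, and of OX40 ligand with its receptor TNFRSF4 were present in both clones and in neither parent. TNF and TNFRSF1A were present together in SkBr3 and SkBr3/Lap by the brighter TNF probe and on all 4 arrays by the other, which brought the pairs in BT474 and BT474/Lap to 8 and 11 and those on all 4 arrays to 4. Members were detected more often in the clones, as given above, and the pairs rest on the same detection calls.

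**Figure D4:**
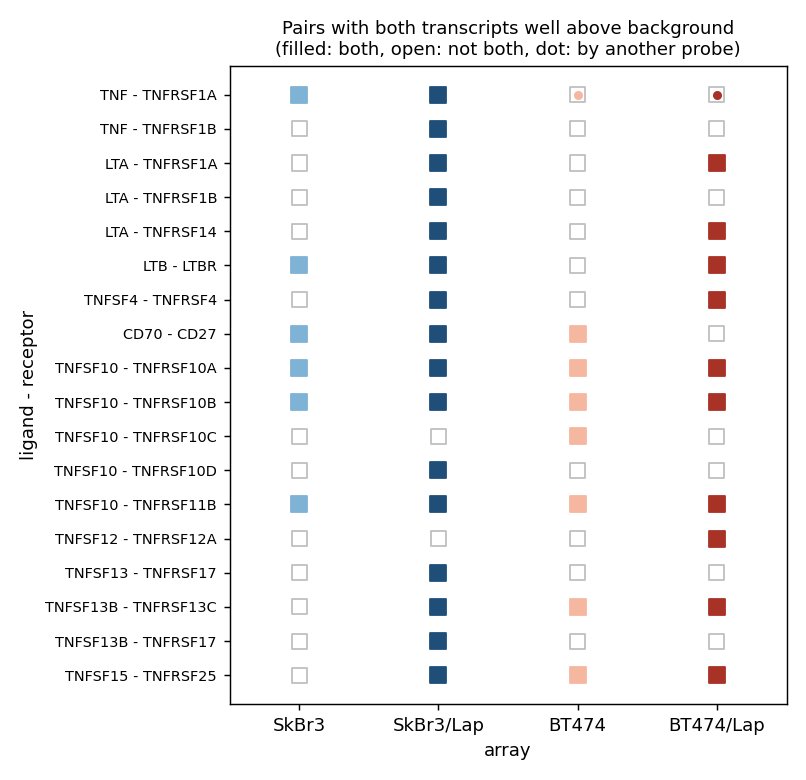
Ligand and receptor pairs (vertical axis) on each array (horizontal axis), with a filled square where both transcripts were well above background an open square where they were not, and a dot where another probe of the gene made up the pair, for the 18 of 28 pairs that were present on at least 1 array. SkBr3/Lap has the most filled squares, 16 against 6 in SkBr3.

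The other clusters of members in the genome held mixed values. On chromosome 8, TNFRSF10B, TNFRSF10C, TNFRSF10D and TNFRSF10A lie in 1 cluster, and in BT474/Lap the first of these was 3.81-fold and TNFRSF10C at least 2.34-fold lower, while TNFRSF10A was 1.69-fold lower. On chromosome 12, TNFRSF1A, LTBR and CD27 all stayed within 2-fold in both clones. On chromosome 1, TNFRSF8 was 9.79-fold higher in SkBr3/Lap and TNFRSF1B, with 3 genes between them, at least 1.41-fold higher.

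Genes of the signaling complexes that the receptors use were mostly detected and mostly within 2-fold. Of these 43 genes, RELA (the p65 subunit of NF-κB) and NFKB2 had no probe that could be named and were not compared. All 41 with a probe could be compared in SkBr3/Lap, where 10 were at least 2-fold higher and 2 lower (24.4% and 4.88%). The median log2 fold change there was 0.22 over the 39 measured. In BT474/Lap 3 of 39 were higher and 1 lower (7.69% and 2.56%), with a median of -0.06, beside the background shares given for each clone above. CASP10 (caspase-10), BIRC3 (the ubiquitin ligase cIAP2) and MAP3K14 (NIK, the kinase of the alternative NF-κB pathway) passed 2-fold upward in each clone.

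CASP10 was at least 48.3-fold higher in SkBr3/Lap, the largest on this list there, and 2.53-fold higher in BT474/Lap. BIRC3 was 18.8-fold and 4.12-fold higher, the latter the largest in BT474/Lap, and MAP3K14 was 5.20-fold and 2.81-fold higher. The largest difference in the other direction in SkBr3/Lap was RIPK3, a kinase of necroptosis, at least 55.1-fold lower, and the only gene at least 2-fold lower in BT474/Lap was RBCK1 (HOIL-1, a subunit of the linear ubiquitin ligase), 2.32-fold lower. The other genes at least 2-fold higher in SkBr3/Lap were TNFAIP3 (A20), TRAF5, RELB, OTULIN, NFKBIE, NFKBIA and TRAF1, between 2.10-fold and 10.6-fold, and MLKL, the effector of necroptosis, was 4.89-fold lower there. Of the related ligand EDA and receptor EDA2R, EDA stayed within 2-fold in both clones and EDA2R was not well above background on any array.

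Markers of other cell types also differed in SkBr3/Lap. Of 5 fibroblast markers with a probe, COL3A1 (at least 11.7-fold higher) and PDGFRB (at least 2.18-fold higher) were detected only in SkBr3/Lap, and COL1A2, LUM and DCN were not well above background on any array. The summed fibroblast level was 0.0207, 0.208, 0.0188 and 0.0122 times the 75th percentile in SkBr3, SkBr3/Lap, BT474 and BT474/Lap, and outside SkBr3/Lap these sums hold only signals that were not well above background. Of 4 endothelial markers, CDH5 was 8.43-fold and PECAM1 at least 5.38-fold higher in SkBr3/Lap, PECAM1 was at least 2.38-fold higher and VWF 2.18-fold lower in BT474/Lap, and KDR was not well above background on any array. The summed endothelial level was 0.173, 0.675, 0.785 and 0.395 times the 75th percentile. All samples were cultured breast cancer cell lines. Any relation of these marker transcripts to the differences of the superfamily members was not tested.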

How the data were processed

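Total RNA of 4 samples was labelled with Cy3 and hybridized to 4 Agilent arrays of 41000 non-control probes, 1 per condition. The study's methods differ from this, as they name a further dye, another version of Feature Extraction and LOWESS normalization. The file headers, which give 1 channel, were followed here. The authors deposited the spots' processed signals, which are intensities that Feature Extraction 10.1.1.1 had corrected for background per the file headers, with flags for detection, saturation and outliers (0 spots were saturated). They also deposited a log2 table per probe. Its differences between arrays departed from the same differences of the signals by a median of 0.000728 in SkBr3 and 0.000586 in BT474 and at most by 0.616, and its column medians were 0.126, -0.199, 0.106 and -0.046 for SkBr3, SkBr3/Lap, BT474 and BT474/Lap. It is thus on a log2 scale and centered per probe, with the shift applied to each array unknown, and it served as an alternative only.

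Log2 signals were averaged over a probe's spots, and each array was scaled by subtracting its 75th percentile over all non-control probes. RefSeq accessions, looked up in the GRCh38.p14 gene table, named 23680 probes. A gene was represented by its probe with the highest mean scaled signal over the 4 arrays, and 10 members had 2 probes. Detection, or being well above background, required that mark on 50% or more of a probe's spots. Members at least 2-fold apart from the parent in at least 1 clone, measured or as a limit, were given with all 4 values. Of the signaling genes, those at least 2-fold apart in both clones and the largest in each direction were named, and the rest of those past 2-fold were added after their values were seen. Genes with both signals below background, or whose limit was under 1, were given no fold. The limma 3.58.1 fit was made in R 4.3.3, and the scripts were tested on simulated data. Promoter windows were cut to the bases before the start. The members and lists were chosen with earlier results of these data known.

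Precision is limited by the number of arrays, and spots of 1 array show only the spread within it (median SD 0.075 to 0.081 log2 units over the 264 probes spotted 10 times). Groups followed the labels. The alternatives were other scalings, background correction, a pseudocount of 16, leaving out outlier spots, the deposited table, averaging a gene's probes, detection by any probe (added after seeing the data), stricter signal filters and a threshold of 3-fold.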

Additional observations from a re-analysis of the deposited data

Results flagged for a closer look

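TNFSF10 (TRAIL) passed 2-fold in opposite directions in the clones, with a log2 fold change of -1.83 for SkBr3/Lap against SkBr3 and 3.52 for BT474/Lap against BT474. With 1 array per condition, this difference between the clones was not tested.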

How the results depend on the processing

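Of the 21 differences past 2-fold among the members, 13 stayed past 2-fold under every alternative that gave a value, 8 did not under some, and 0 changed direction. Under normexp background correction with quantile normalization, the log2 fold changes of CD40, FASLG and TNFSF10 in SkBr3/Lap were -0.95, -0.59 and -0.61. FAS in SkBr3/Lap was at 0.81 there and at 0.78 with a pseudocount of 16, NGFR and TNFSF4 in BT474/Lap at 0.44 and 0.55 there and at 0.63 and 0.85 with the pseudocount, and TNFRSF10C and CD70 in BT474/Lap at -0.31 and -0.41 there, at -0.90 and -0.85 with the pseudocount and at -0.94 and -0.86 with the percentile taken over detected probes. The member counts moved as follows. In BT474/Lap, 3 were lower with the percentile over detected probes, normexp, the pseudocount, a signal of at least 100 or both arrays detected, 9 with median scaling and 2 at 3-fold, and 2 were higher with normexp, the pseudocount, both arrays detected or 3-fold, in which 1 was higher in both clones. In SkBr3/Lap, 1 was lower with normexp and 2 with both arrays detected, where 5 were higher. Opposite directions held for 2 members with the percentile over detected probes, for 3 with median scaling or the mean over probes and for 0 with normexp. The median over members was 0.41 and -0.0286 in SkBr3/Lap and BT474/Lap with the percentile over detected probes, 0.32 and -0.52 with median scaling, 0.40 and -0.76 with a signal of at least 100, -0.53 in BT474/Lap with quantile normalization and -0.19 there with the mean over probes, and it was reversed to -0.0636 in SkBr3/Lap with the pseudocount. The median over all genes itself moved from -0.10 in each clone to 0.15 and 0.18 with the percentile over detected probes and to 0.05 and -0.31 with median scaling. Of the signaling genes, 0 were lower in BT474/Lap with the percentile over detected probes and at 3-fold, 1 was lower in SkBr3/Lap with both arrays detected, and 6 and 1 were higher in SkBr3/Lap and BT474/Lap at 3-fold. In limma without the cell line block, 215 genes and 2 members had an unadjusted p under 0.05, and 2, 1 and 2 members did with quantile normalization, with detection on all 4 arrays and with median scaling. Detection by any probe of a gene, an alternative chosen after seeing the data, gave 23, 30, 22 and 29 detected members and 6, 16, 8 and 11 pairs. Of 161 values of the counts, medians and test results under alternatives, 120 stayed close to the reported value. Close meant within 1.5 times for a count and within 0.1 log2 units for a median. The cause of these moves was not tested, except that fewer genes or a higher threshold enter by construction in the stricter filters. By construction, the pseudocount of 16 and the offset of 50 added with normexp also shrink the folds of dim probes. The block pairs each clone with its own parent, while the replicate numbers pair nothing, since every group holds 1 sample, and no replicate could be left out with 1 array per condition.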
